A study of Mus musculus with 18 samples.

Results

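The adrenergic signalling genes were followed as 9 genes of the pathway by which noradrenaline and adrenaline act on the heart, namely the receptors *Adrb1*, *Adra1a* and *Adra1b*, the adenylyl cyclases *Adcy5* and *Adcy6*, the protein kinase A subunits *Prkaca* and *Prkar1a*, and the cAMP phosphodiesterases *Pde4d* and *Pde3a*. The measurements were ChIP-seq libraries of mouse ventricles for RNA polymerase II (Pol II, with an antibody to its B1 subunit), for the architectural DNA-binding factor CTCF and for a control IgG. A peak was a member if the authors' annotation gave it to 1 of these genes, or if it had no gene of its own and lay inside the gene. By this rule 118 of the 101256 peaks of the series were members, and they belonged to 8 genes, with 42 peaks at *Pde4d*, 31 at *Pde3a*, 19 at *Adcy5*, 9 at *Adrb1*, 9 at *Adra1a*, 4 at *Adcy6*, 3 at *Prkar1a* and 1 at *Prkaca*. No peak carried the name or identifier of *Adra1b*.

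The 3 genotypes were adult WT mice, *Trdn-as* KO mice and *Mettl3* KO mice, with 2 Pol II, 2 CTCF and 1 IgG library each. *Trdn-as* is a long non-coding RNA transcribed antisense to triadin. In the *Trdn-as* KO line its transcription was stopped in every cell by a polyadenylation site placed in the first exon. The *Mettl3* KO mice were of the genotype Mettl3lox/lox:alphaMHC-MerCreMerpos, in which tamoxifen activates a Cre recombinase driven by a cardiomyocyte promoter, so that the other cells of the heart kept the m6A RNA methyltransferase METTL3. Both knockouts were compared with the same WT libraries, so their comparisons share controls. The controls are labelled WT only, and whether they carried lox sites or received tamoxifen is not given for these libraries in the sources used here. Ventricles of a pair of hearts were worked up together and the sheared chromatin was pooled, so the 2 libraries of a genotype may be technical repeats, and p-values then measure only the spread between libraries. In whole ventricle, fewer cells of a type and less signal per cell cannot be told apart.

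In cardiomyocytes the beta-1 receptor encoded by *Adrb1* couples through the stimulatory G protein to the adenylyl cyclases encoded by *Adcy5* and *Adcy6*, which make cAMP. cAMP releases the catalytic subunit (*Prkaca*) from the regulatory subunits (such as *Prkar1a*) of protein kinase A, which then phosphorylates calcium-handling and contractile proteins, while *Pde4d* and *Pde3a* encode enzymes that break cAMP down again. The alpha-1 receptors encoded by *Adra1a* and *Adra1b* act through another G protein and phospholipase C. In the nucleus protein kinase A activates CREB-type factors, which bind the cAMP response element TGACGTCA and, more weakly, its shorter form TGACG.

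The 250 bases before the transcription start were available in RefSeq (build GRCm38.p6) for 6 of the 9 genes, in 13 windows, and those of *Adrb1*, *Prkaca* and *Prkar1a* are shown because they hold the full (*Prkar1a*) or the short form (*Adrb1* and *Prkaca*) of that element at genes with strong Pol II peaks. Capitals mark TGACGTCA and TGACG on either strand (CGTCA on the other strand), and each run reads 5′ to 3′ towards the start. The windows lie at chr19:56721867-56722116, chr8:83972728-83972977 and chr11:109650699-109650948 on the plus strand.
Adrb1: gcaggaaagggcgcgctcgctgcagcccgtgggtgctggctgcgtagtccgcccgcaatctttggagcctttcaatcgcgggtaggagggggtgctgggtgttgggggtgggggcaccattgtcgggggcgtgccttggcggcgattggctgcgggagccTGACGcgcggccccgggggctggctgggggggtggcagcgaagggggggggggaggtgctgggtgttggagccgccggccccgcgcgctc
Prkaca: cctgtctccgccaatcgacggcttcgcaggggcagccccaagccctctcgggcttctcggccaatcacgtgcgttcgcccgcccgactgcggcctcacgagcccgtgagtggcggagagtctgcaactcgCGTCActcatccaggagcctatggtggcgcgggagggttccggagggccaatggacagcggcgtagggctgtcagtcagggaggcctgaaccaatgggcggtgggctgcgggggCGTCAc
Prkar1a: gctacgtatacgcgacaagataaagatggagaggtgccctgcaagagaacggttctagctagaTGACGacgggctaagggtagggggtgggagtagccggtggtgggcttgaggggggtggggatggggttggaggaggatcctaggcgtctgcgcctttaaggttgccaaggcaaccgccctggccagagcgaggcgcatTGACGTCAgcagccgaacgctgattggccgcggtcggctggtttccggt

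The full element was found in 1 of the 13 windows, a window of *Prkar1a*, where it begins 49 bases before the start, and in 1.55% of all 32851 RefSeq windows of this length. The shorter form, which the full element also contains, was found in 5 windows of 3 genes (*Adrb1*, *Prkaca* and *Prkar1a*) and in 17.8% of all windows. The windows are not independent, since the *Prkar1a* windows at chr11:109650612-109650861 and chr11:109650699-109650948 overlap. The same TGACG lies 100 bases before the start in the former and 187 bases before it in the latter. In *Adrb1* the shorter form begins 90 bases before the start, and in *Prkaca* 120 and 6 bases before it. Of the other motifs searched on both strands, the GC box GGGCGG was in 7 of the 13 windows (32.7% of all windows), the CTCF core GGNGGCAG in 3 (9.93%), the E-box CACGTG in 2 (6.02%) and TATAAA in 0 (12.4%). These matches describe letters only, and since the peaks are on GRCm39 their positions were not set against these windows.

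The values are normalised read counts, so that 1 read was worth between 0.945 and 2.04 units in the Pol II libraries, 0.284 to 0.458 in the CTCF libraries and 2.55 to 6.56 in the IgG libraries. The share of mapped reads that fell in peaks was 35.6% to 42.5% in 5 Pol II libraries and 18.6% in *Trdn-as* KO library 2. The 6 peaks on chromosome Y summed to 223 to 326 in the Pol II libraries of WT and *Mettl3* KO and to 0 in those of *Trdn-as* KO, so sex and this genotype cannot be told apart. The peak table gives *Trdn-as* (D830005E20Rik) no symbol, and its gene was found through the identifier ENSMUSG00000112707, which GENCODE pairs with that name. At its highest peak (chr10:33129849-33132974) Pol II read 530 and 595 in the WT pair, 140 and 100 in the *Trdn-as* KO pair and 503 and 491 in the *Mettl3* KO pair. It fell by 2.24 on the log2 scale in *Trdn-as* KO (SE 0.18, limma adjusted p = 2.8e-14). The single peak of *Mettl3*, at its start, read 177 and 202 in the WT pair, 203 and 161 in the *Trdn-as* KO pair and 240 and 235 in the *Mettl3* KO pair, and does not check that allele. Of the 118 member peaks, 57 reached a value of 10 in at least 2 of the 6 Pol II libraries and 64 in at least 2 of the 6 CTCF libraries, and these were tested. The other 61 and 54 were too low. Peak coordinates are on GRCm39. Each gene is represented by its lead peak, the promoter peak (within 5000 nt of a start) with the highest mean Pol II value, and 7 of the 8 lead peaks cover the annotated start of the gene.

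Among the receptors, *Adrb1* carried far more Pol II than *Adra1a*. The lead peak of *Adrb1* (chr19:56709621-56712439) read 485 and 486 in the WT pair, 610 and 509 in the *Trdn-as* KO pair and 524 and 491 in the *Mettl3* KO pair. At *Adra1a* the lead peak (chr14:66873675-66875168), which begins inside the gene, read 138 and 142 in the WT pair, 129 and 106 in the *Trdn-as* KO pair and 71 and 96 in the *Mettl3* KO pair. Both *Mettl3* KO libraries thus lay below all 4 other libraries at the *Adra1a* lead peak. This was not so at the *Adra1a* promoter peak centred 290 nt from the start. It read 48 and 45 in the WT pair, 31 and 26 in the *Trdn-as* KO pair and 35 and 26 in the *Mettl3* KO pair. There both knockouts were below WT and overlapped each other, and neither difference was called. At the *Adrb1* lead peak the lowest knockout value, 491, was just above the WT values and the knockouts overlapped.

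Of the cyclases, *Adcy6* had the stronger peak. Its lead peak (chr15:98503300-98508151) read 907 and 982 in the WT pair, 999 and 770 in the *Trdn-as* KO pair and 775 and 794 in the *Mettl3* KO pair, and the *Adcy5* lead peak (chr16:34974405-34975788) read 102 and 116, 131 and 92, and 126 and 128 in the same order. The *Mettl3* KO libraries were below both WT libraries at *Adcy6* and above both at *Adcy5*, and the *Trdn-as* KO libraries spanned the WT values at both genes.

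*Prkaca* and *Prkar1a* encode the catalytic and a regulatory subunit of protein kinase A. *Prkaca* (chr8:84698768-84700720) read 338 and 332 in the WT pair, 364 and 373 in the *Trdn-as* KO pair and 460 and 451 in the *Mettl3* KO pair, an order in which no genotypes overlapped. *Prkar1a* (chr11:109539332-109543898) read 782 and 878 in the WT pair, 811 and 631 in the *Trdn-as* KO pair and 909 and 932 in the *Mettl3* KO pair. Of the *Prkar1a* values, the lowest was that of *Trdn-as* KO library 2, the library with the low share of reads in peaks.

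The phosphodiesterase genes are long and were rich in weak peaks. The *Pde3a* lead peak (chr6:141194917-141197440) read 237 and 210 in the WT pair, 300 and 244 in the *Trdn-as* KO pair and 320 and 341 in the *Mettl3* KO pair, with no overlap between the genotypes. At *Pde4d* the lead peak (chr13:108586295-108586615) was the weakest of the 8, with 31 and 28 in the WT pair, 38 and 26 in the *Trdn-as* KO pair and 51 and 46 in the *Mettl3* KO pair. *Pde4d* is known to use many alternative starts, and its strongest member peak lay 1372603 nt into the gene, with values of 113 and 111, 125 and 63, and 109 and 85 in the same order.

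Both *Mettl3* KO libraries were above both WT libraries at 6 of the 8 lead peaks and below them at 2 (*Adra1a* and *Adcy6*), beside 66.9% of all 12343 genes above and 7.47% below. Both *Trdn-as* KO libraries were above both WT libraries at 3 (*Adrb1*, *Prkaca* and *Pde3a*) and below them at 1 (*Adra1a*), beside 11.4% and 12.7% of all genes. These counts are on the authors' scaling. The fitted *Trdn-as* KO changes of the 3 higher genes turned negative when scaled by uniquely mapped reads.

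The lead peaks were then ordered by their level per kb of peak. Within WT (mean ± SD, n = 2 libraries) *Adcy6* had 195 ± 10.9 units per kb, *Prkar1a* 182 ± 14.9, *Adrb1* 172 ± 0.251 and *Prkaca* 172 ± 2.17. *Adra1a* followed with 93.7 ± 1.89, *Pde4d* with 91.9 ± 6.61, *Pde3a* with 88.5 ± 7.56 and *Adcy5* with 78.8 ± 7.15. The WT values of *Adra1a*, *Pde4d* and *Pde3a* overlapped, as did those of *Pde3a* and *Adcy5*, of *Adcy6* and *Prkar1a*, and of *Prkar1a*, *Adrb1* and *Prkaca*, so between neighbours only the step between *Prkaca* and *Adra1a* was large against the spread. Over all 6 libraries, whose genotypes differ by gene, the same 4 genes led in another order, with *Prkaca* at 198 ± 28.6 (SD, n = 6), *Adrb1* at 184 ± 17.0, *Prkar1a* at 180 ± 24.2 and *Adcy6* at 180 ± 21.7, and *Pde4d* (114 ± 31.6), *Pde3a* (109 ± 20.7), *Adcy5* (83.7 ± 11.4) and *Adra1a* (76.1 ± 18.5) followed.

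Every lead peak stood above IgG on the scale of mapped reads. The choice of peaks favoured this, since they were called against input in these libraries and lead peaks have the highest mean values. Scaled to the number of uniquely mapped reads, Pol II was 9.26 (*Adra1a*) to 43.0 (*Pde4d*) times IgG for WT, 5.32 (*Pde4d*) to 19.1 (*Adra1a*) times for *Trdn-as* KO and 4.05 (*Adra1a*) to 18.8 (*Adcy5*) times for *Mettl3* KO. In each genotype the intervals of all 8 lead Pol II peaks and all 8 lead CTCF peaks (exact 95%, counting error only) lay above 1. For CTCF this depends on the scaling. On the authors' scale, where an IgG read is worth more, CTCF at *Adrb1* read 81 and 87 in WT against 92 for IgG. At *Prkar1a* it read 161 and 180 in WT against 186. At other lead peaks, such as that of *Pde4d* (111 and 111 against 41), WT CTCF stayed above IgG. At *Adrb1* the Pol II multiple was 19.6 (14.1 to 28.2) for WT, 11.3 (6.92 to 19.9) for *Trdn-as* KO and 15.9 (10.1 to 26.6) for *Mettl3* KO. Few IgG reads fell in peaks (4.90% to 5.70% of the mapped reads). The multiple of 43.0 at *Pde4d* for WT therefore rested on 1 IgG read (7.39 to 1731). That of 19.1 at *Adra1a* in *Trdn-as* KO rested on 2 (5.20 to 159), against 22 in WT and 12 in *Mettl3* KO. For CTCF the multiples ran from 2.56 (*Adcy6* in *Trdn-as* KO) to 18.8 (*Adra1a* in *Trdn-as* KO).

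Loss of *Trdn-as* was not accompanied by a called change of Pol II at any of these genes. Of the 57 member peaks tested against WT, 0 passed an adjusted p of 0.05 (limma), beside 0.304% of all 52655 peaks (160, of which 42 were higher), and 7 member peaks (12.3%) had an unadjusted p under 0.05, against 7.7% of all peaks. The median log2 fold change over the tested member peaks was 0.01 and that over all tested peaks -0.07. At the lead peaks the fold changes ran from -0.26 at *Adra1a* (SE 0.24, 95% interval -0.75 to 0.23) to 0.28 at *Pde3a* (SE 0.19, -0.10 to 0.65), with 0.20 at *Adrb1* (SE 0.16, -0.11 to 0.51) and 0.14 at *Prkaca* (SE 0.17, -0.20 to 0.47). Scaling by uniquely mapped reads turned the sign at 5 of the 8 lead peaks. The values were then -0.40 at *Adrb1*, -0.46 at *Prkaca*, -0.32 at *Pde3a*, -0.58 at *Adcy5* and -0.49 at *Pde4d*. The median over the lead promoter peaks of all genes was -0.63 on that scale. Of the member peaks, the smallest p was found inside *Adra1a*, 97418 nt from the start, where Pol II read 95 and 110 in the WT pair, 44 and 63 in the *Trdn-as* KO pair and 62 and 91 in the *Mettl3* KO pair. There the log2 fold change of *Trdn-as* KO was -0.94 (SE 0.28, limma adjusted p = 0.19), which did not pass.

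For the sums over the annotated promoter peaks of a gene, 0 of 8 genes were called in *Trdn-as* KO (limma, 0 with an unadjusted p under 0.05), beside 0.354% of 12442 genes. Without *Trdn-as* KO library 1, which leaves only the library with 18.6% of reads in peaks, 4 member peaks were called lower, at *Prkar1a* (-0.39), at both promoter peaks of *Adcy6* (-0.52 and -0.29) and at an *Adrb1* promoter peak (-0.66), beside 3.62% of all peaks, and 3 of 8 gene sums were called (*Adcy5*, *Adcy6* and *Prkar1a*), beside 21.2% of all gene sums. These fits assume that the lone *Trdn-as* KO library varies like the other groups. Without library 2, 0 member peaks were called (limma).

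In *Mettl3* KO, the alpha-1A receptor gene *Adra1a* had less Pol II at its promoter. Summed over its 3 annotated promoter peaks, Pol II read 191 and 192 in the WT pair, 173 and 140 in the *Trdn-as* KO pair and 107 and 124 in the *Mettl3* KO pair, and the *Mettl3* KO values were the lowest. This sum fell by 0.73 on the log2 scale against WT (SE 0.22, limma adjusted p = 0.030). It was 1 of 8 gene sums called, beside 3.98% of 12442 genes. The call was lost when any 1 of the 4 compared libraries was left out (log2 changes of -0.83 to -0.62). It was also lost without a variance trend (limma adjusted p = 0.18) and with a replicate block (limma adjusted p = 0.056). The same held with libraries scaled by uniquely mapped reads (-0.87, limma adjusted p = 1.00).

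At the level of single peaks, 0 of the 57 member peaks were called in *Mettl3* KO against WT (limma), beside 1.19% of all peaks (629), and 13 member peaks (22.8%) had an unadjusted p under 0.05, against 15.5% of all peaks. The median log2 fold change was -0.17 over the tested member peaks and 0.08 over all tested peaks. Single-peak fold changes at the lead peaks were -0.75 at *Adra1a* (SE 0.24, 95% interval -1.24 to -0.27, limma adjusted p = 0.11), 0.56 at *Pde3a* (SE 0.19, 0.19 to 0.94, adjusted p = 0.12) and 0.44 at *Prkaca* (SE 0.17, 0.11 to 0.78, adjusted p = 0.18). The largest positive value was 0.70 at *Pde4d* (SE 0.35, -0.01 to 1.41, adjusted p = 0.33), and *Adcy5* stood at 0.22 (SE 0.24, -0.26 to 0.71). *Adrb1* stood at 0.06 (SE 0.16, -0.25 to 0.37), *Adcy6* at -0.27 (SE 0.14, -0.54 to 0.01) and *Prkar1a* at 0.15 (SE 0.14, -0.13 to 0.43). The median over the lead promoter peaks of all genes was itself 0.26 in *Mettl3* KO. Relative to it *Pde4d* was 0.43, *Pde3a* 0.30 and *Prkaca* 0.18 higher, while *Adra1a* was at -1.02, *Adcy6* at -0.53, *Adrb1* at -0.20, *Prkar1a* at -0.11 and *Adcy5* at -0.04. This median was 0.17 with median-of-ratios scaling and 0.13 with uniquely mapped reads, and *Adrb1* then read -0.037 and -0.077 in place of 0.063.

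More member peaks were called when the spread was estimated without the *Trdn-as* KO libraries, whose replicates differed most (a median absolute log2 difference of 0.46 between replicates, against 0.29 in WT and 0.33 in *Mettl3* KO). With only WT and *Mettl3* KO in the fit, 7 member peaks passed, beside 9.23% of all peaks. They were higher at *Pde3a* and *Prkaca* and lower at *Adra1a*, at both promoter peaks of *Adcy6* and at 2 peaks of *Adrb1* (all limma adjusted p between 0.0090 and 0.027). Median-of-ratios scaling called 6 of them, without *Prkaca*, beside 4.51% of all peaks. Of the peaks called in this way the *Adrb1* peak 6860 nt into the gene was nearest to a call in all 6 libraries (log2 fold change -1.60, SE 0.45, limma adjusted p = 0.055), and it is named here after its values were seen. It read 37 and 31 in the WT pair, 26 and 16 in the *Trdn-as* KO pair and 10 and 11 in the *Mettl3* KO pair, which is 27 and 33, 23 and 8, and 8 and 7 reads.

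**Figure D1:**
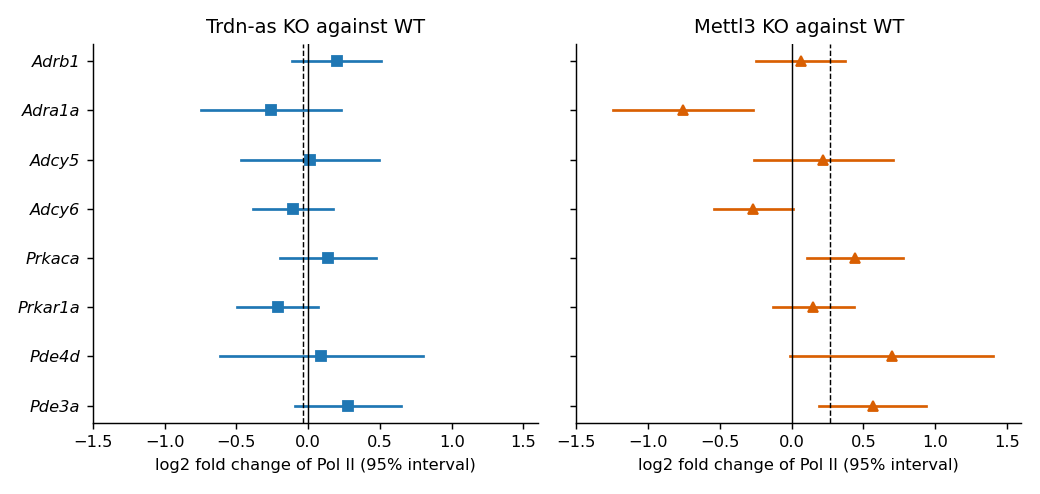
Log2 fold change of Pol II at the lead peaks of 8 genes with 95% intervals (limma), for *Trdn-as* KO (left) and *Mettl3* KO (right) against WT. The solid line is 0 and the dashed line the median over the lead promoter peaks of all genes (-0.03 and 0.26), and in *Mettl3* KO *Adra1a* (-0.75) lies farthest to the left.

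How Pol II divided between promoter and gene body was compared within each library, by the log2 ratio of the summed body peaks to the summed promoter peaks. With 2 libraries against 2, the two-sided exact permutation test cannot go below p = 0.33, so none of the 14 comparisons (7 genes with body peaks) could pass, and the smallest adjusted p was 0.67. At *Adrb1* the body sum read 131 and 121 in the WT pair, 130 and 66 in the *Trdn-as* KO pair and 78 and 72 in the *Mettl3* KO pair, while the promoter sum stayed between 752 and 921. The share of *Adrb1* Pol II in the body was therefore 13.7% and 12.5% for WT, 12.4% and 8.07% for *Trdn-as* KO and 8.64% and 8.26% for *Mettl3* KO. WT overlapped with neither knockout (log2 ratio differences of -0.43 and -0.70, exact p = 0.33 each). For *Trdn-as* KO this rested on 12.4% against 12.5%, and the low value was that of library 2. Over the 4319 genes described below, 23% had lower ratios without overlap in *Trdn-as* KO and 42.9% in *Mettl3* KO.

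At *Adra1a* the body share lay in the other direction. Body peaks read 163 and 195 in the WT pair and 152 and 168 in the *Mettl3* KO pair, while the promoter sums of *Mettl3* KO were lower, and the body share was 46.0% and 50.4% for WT and 58.7% and 57.5% for *Mettl3* KO (log2 ratio difference 0.57, exact p = 0.33). In *Trdn-as* KO the *Adra1a* body peaks read 88 and 135, below both WT values, and the body share of 33.7% and 49.1% overlapped that of WT. At *Pde3a* the body sums lay close together, with 204 and 209 in the WT pair, 216 and 221 in the *Trdn-as* KO pair and 196 and 198 in the *Mettl3* KO pair, and the body share was 40.6% and 42.8% for WT and 34.0% in both *Mettl3* KO libraries (difference -0.47, exact p = 0.33). *Pde4d* (-0.37) and *Prkar1a* (body sums of 4 and 3 for WT against 0 and 2) also had lower ratios in *Mettl3* KO without overlap.

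Lower body to promoter ratios in *Mettl3* KO were common over all genes. Of 4319 genes with a mean of 10 or more in both sums, 42.9% had both *Mettl3* KO ratios below both WT ratios and 9.49% above, with a median difference of -0.27. Of the 6 member genes among them, 3 were below (*Adrb1*, *Pde4d* and *Pde3a*) and 1 above (*Adra1a*). For *Trdn-as* KO 23% of these genes were below and 15.9% above, with a median of -0.033, and 1 member gene was below (*Adrb1*) and 1 above (*Adcy5*).

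**Figure D2:**
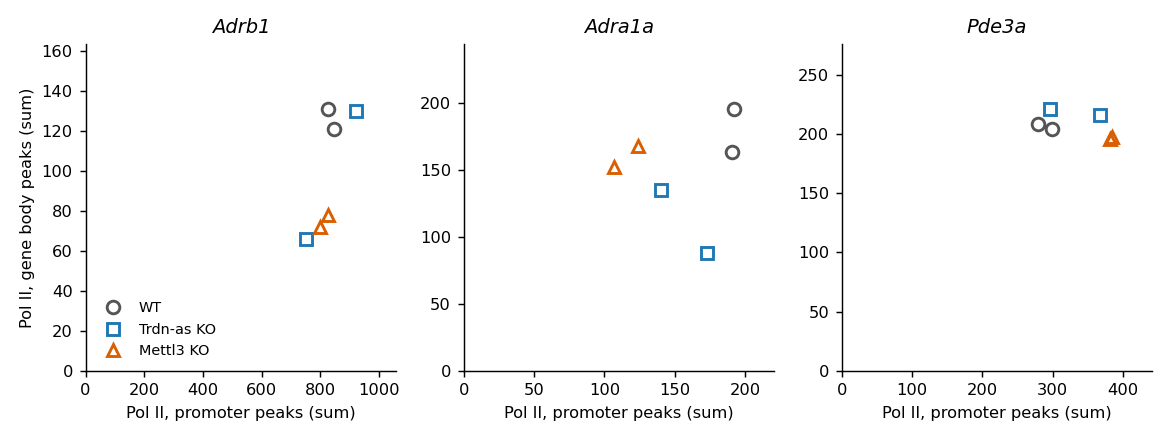
Summed Pol II of the body peaks against that of the promoter peaks of *Adrb1*, *Adra1a* and *Pde3a*, in normalised counts, with 1 symbol per library. The *Mettl3* KO libraries are shifted down at *Adrb1* (78 and 72 against 131 and 121 in the WT pair), to the left at *Adra1a* (107 and 124 against 191 and 192) and to the right at *Pde3a* (381 and 384 against 299 and 279).

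The body share itself differed between the genes, but it also depends on gene length and on which peaks the annotation counts as promoter. *Pde4d* spans 1503514 nt, against 20252 nt at *Prkar1a* and 20104 nt at *Adcy6*. At *Adcy6* a peak centred 6742 nt into the gene counted as promoter. The part of these in the body share was not tested. The share was 79.5% to 87.1% at *Pde4d*, whose 37 body peaks summed to 410 to 585, and 0% to 1.21% at *Prkar1a*, whose single body peak read at most 8. *Adcy5* was at 28.5% and 30.6% for WT, 34.9% and 47.9% for *Trdn-as* KO and 29.6% and 29.2% for *Mettl3* KO. The *Adcy5* log2 ratio was 0.74 higher in *Trdn-as* KO than in WT (exact p = 0.33), and the higher of its *Trdn-as* KO values was again from library 2. *Adcy6* stayed between 1.64% and 2.86% in all libraries.

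The knockouts were also compared with each other. For Pol II, 0 of the 57 member peaks passed in *Trdn-as* KO against *Mettl3* KO (limma), beside 1.5% of all peaks, and 9 (15.8%) had an unadjusted p under 0.05, against 17.9% of all peaks. At the lead peaks the difference was 0.50 at *Adra1a* (SE 0.24, limma adjusted p = 0.27) and -0.36 at *Prkar1a* (SE 0.14, adjusted p = 0.16). Without *Trdn-as* KO library 1, *Prkar1a* (-0.54) and *Pde3a* (-0.44) were called, beside 18.1% of all peaks, and with median-of-ratios scaling *Adra1a* (0.67), the *Adcy6* lead peak (0.33) and a *Pde4d* body peak (1.11) were called, beside 2.76% of all peaks.

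At the lead CTCF peaks the genotypes differed little, with log2 fold changes against WT between -0.31 and 0.19. The lead CTCF peak, the member peak with the most CTCF, was the lead Pol II peak at 6 genes, a second promoter peak at *Adcy5* and a body peak 1326318 nt into *Pde4d*. At *Adcy5* it read 153 and 141 in the WT pair, 129 and 141 in the *Trdn-as* KO pair and 149 and 146 in the *Mettl3* KO pair, and at *Pde4d* 111 and 111, 129 and 123, and 116 and 112. Per kb these were the strongest CTCF peaks of the 8, with 70.4 ± 4.11 and 72.1 ± 4.60 units (SD, n = 6), and the other 6 lay between 27.7 (*Adrb1*) and 41.2 (*Prkaca*).

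Of 64 member peaks tested for CTCF, 1 was called in *Trdn-as* KO against WT, beside 0.587% of 60649 peaks, 0 in *Mettl3* KO against WT (limma, 6 with an unadjusted p under 0.05), beside 0.185%, and 1 in *Trdn-as* KO against *Mettl3* KO, beside 1.37%. In that order 4, 6 and 17 member peaks (6.25%, 9.38% and 26.6%) had an unadjusted p under 0.05, against 10.2%, 15.7% and 18.8% of all peaks. The median log2 fold changes over the member peaks were 0.06, 0.01 and 0.08, and those over all tested peaks 0.04, -0.06 and 0.09. The called peak was the same in both cases. It passed the filter on low values only through WT and *Mettl3* KO, the groups in which it is high. It lies inside *Pde4d*, 272482 nt from the start (chr13:108858821-108859108 of GRCm39), and its CTCF value was 13 and 12 in the WT pair, 3 and 4 in the *Trdn-as* KO pair and 13 and 13 in the *Mettl3* KO pair. In reads these were 32 and 42, 8 and 9, and 39 and 38, so the *Trdn-as* KO libraries lay well apart from the other 4. The log2 fold change was -1.59 against WT (SE 0.29, limma adjusted p = 0.0093) and -1.65 against *Mettl3* KO (SE 0.29, adjusted p = 0.0050). Pol II there was at 0 to 5 in all libraries, and IgG counted 4, 1 and 0 reads in WT, *Trdn-as* KO and *Mettl3* KO.

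The call at this *Pde4d* peak was lost when any 1 of the compared libraries was left out, with log2 changes against WT of -1.75 to -1.43 and adjusted p between 0.33 and 0.57, and when only the compared genotypes were fitted (adjusted p = 0.42) or no filter was used (0.16). It held with both other scalings and both other pseudocounts. Of the 8 lead CTCF peaks, that of *Adrb1* had the largest difference from WT, in *Mettl3* KO, where 68 and 67 stood below 81 and 87 in the WT pair and 83 and 82 in the *Trdn-as* KO pair (log2 fold change -0.31, SE 0.11, limma adjusted p = 0.19).

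**Figure D3:**
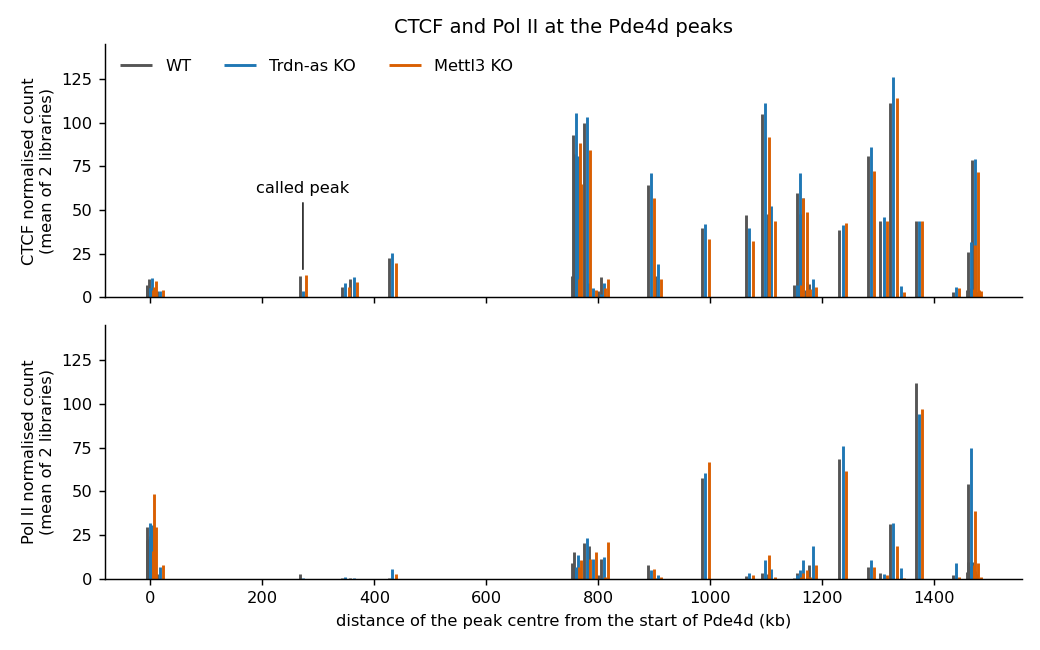
Mean CTCF (top) and Pol II (bottom) normalised count of the 2 libraries of each genotype at the 42 *Pde4d* peaks, by distance of the peak centre from the start of the gene in kb, with the bars of the genotypes set slightly side by side. At the called peak the *Trdn-as* KO bar (3.5) is lower than those of WT (12.5) and *Mettl3* KO (13.0), and the tallest CTCF bars, 1326318 nt into the gene, are at 111 (WT), 126 (*Trdn-as* KO) and 114 (*Mettl3* KO).

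The other genes of the pathway were read at their own lead promoter peak, in 9 lists of 75 genes of which 59 were tested. In *Trdn-as* KO 0 of the 59 were called (limma, 6 with an unadjusted p under 0.05, against 4.86% of all genes), beside 0.251% of the lead promoter peaks of all 12343 genes tested, and their median log2 fold change was 0.00 against -0.03 for all genes. In *Mettl3* KO 4 of the 59 were called, 3 higher and 1 lower, beside 1.76% of all genes (182 higher and 35 lower), with a median of 0.29 against 0.26, and 25 of the 59 had an unadjusted p under 0.05, against 25.5% of all genes. The 8 measured member genes had a median of 0.19 there, with 0 called (limma, 3 with an unadjusted p under 0.05).

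The called genes were *Adcy7*, another adenylyl cyclase, *Gnaq*, the G protein alpha subunit used by alpha-1 receptors, *Prkcd*, a protein kinase C, and *Cacna1c*, the pore of the cardiac L-type calcium channel. Pol II at *Adcy7* rose by 1.70 on the log2 scale (SE 0.37, limma adjusted p = 0.0071), at *Prkcd* by 0.73 (SE 0.20, adjusted p = 0.044) and at *Gnaq* by 0.59 (SE 0.16, adjusted p = 0.046). Pol II at *Cacna1c* fell by 0.53 (SE 0.14, limma adjusted p = 0.044). *Adcy7* read 12 and 36 in the WT pair, 32 and 57 in the *Trdn-as* KO pair and 77 and 64 in the *Mettl3* KO pair, and *Cacna1c* read 965 and 960 in the WT pair, 841 and 641 in the *Trdn-as* KO pair and 713 and 623 in the *Mettl3* KO pair.

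In the other 5 lists 0 genes were called in either knockout (limma), although 14 of their 29 tested genes had an unadjusted p under 0.05 in *Mettl3* KO, against the 25.5% of all genes. Among other receptors (5 of 6 tested), *Adra2b* (mean Pol II 65.3) had a log2 fold change of -0.05 and *Adra1d* (54.3) of 0.15. Of the 7 genes of receptor desensitisation, which encode receptor kinases, arrestins and regulators of G proteins, *Rgs2* (548) had 0.09, *Grk6* (467) 0.36 and *Grk5* (374) 0.38. Receptor genes and their regulators thus lay on both sides of the median of all genes, 0.26. Of the other kinase A subunits and inhibitors (6 of 7 tested), *Prkacb* (300) had 0.10, *Prkar2a* (221) 0.21 and *Prkar1b* (168) 0.46. Of the other phosphodiesterases (6 of 12 tested), *Pde8a* (516) had 0.05, *Pde4a* (282) 0.12 and *Pde5a* (217.5) 0.52. Of the A-kinase anchors (5 of 7 tested), *Akap1* (520) had 0.37, *Akap13* (333) 0.30 and *Akap9* (217) 0.43. None of these named differences passed the test.

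Among the G proteins (7 of 9 tested) *Gnai2* (mean Pol II 945) had a log2 fold change of 0.30 and *Gng5* (476) of 0.35 in *Mettl3* KO, and among the other cyclases (6 of 8 tested) *Cap1* (723.5), a cyclase-associated protein, had 0.27 and *Adcy9* (324.5) 0.30. *Adcy8*, named here after its values were seen, read 27 and 40 in the WT pair and 10 and 11 in the *Mettl3* KO pair (log2 fold change -1.56, limma adjusted p = 0.056). Among the targets of cAMP and kinase A (11 of 12 tested, median 0.09 against 0.26 over all genes), *Pln* (4339.5), which encodes the calcium-pump inhibitor phospholamban, had -0.17, and *Mybpc3* (1161), a myosin-binding protein, 0.16. Of the alpha-1 arm (6 of 7 tested) *Prkce* (689) had 0.23 and *Plcb4* (457) 0.20. In *Trdn-as* KO the named genes of all lists ran from -0.47 at *Adcy8* and -0.39 at *Cacna1c* to 1.00 at *Adcy7*, and the last rested on values of 32 and 57 against 12 and 36.

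Markers of the cell types of the heart were read in the same way, and those of cardiomyocytes were by far the strongest. Summed Pol II at 6 cardiomyocyte markers was 25058 to 26856 for WT, 19595 to 25434 for *Trdn-as* KO and 26057 to 26330 for *Mettl3* KO, and 1 marker, *Myh6*, was called lower in *Trdn-as* KO (-0.35, limma adjusted p = 0.029). The sum over 5 fibroblast markers was 674 to 702 for WT, 733 to 1009 for *Trdn-as* KO and 1316 to 1319 for *Mettl3* KO, with 3 of 5 called higher in *Mettl3* KO (*Pdgfra*, *Col1a1* and *Tcf21*, log2 fold changes of 1.12, 1.19 and 0.74). Of 5 smooth muscle and pericyte markers 1, *Pdgfrb*, was called higher (0.78), and their sum was 337 to 412 for WT, 343 to 469 for *Trdn-as* KO and 541 to 577 for *Mettl3* KO. *Pdgfrb* carried this, with 217 and 257 in the WT pair and 410 and 405 in the *Mettl3* KO pair, and the other 4 markers summed to 120 and 155 against 167 and 136. Endothelial sums were 637 to 712, 595 to 844 and 728 to 748, leukocyte sums 193 to 195, 142 to 177 and 160 to 188, and adipocyte sums 1109 to 1173, 802 to 1035 and 816 to 826, of which *Fabp4* alone gave 1093 and 1159 in the WT pair, 1021 and 776 in the *Trdn-as* KO pair and 796 and 807 in the *Mettl3* KO pair, with 0 genes called in either knockout (limma, 2 with an unadjusted p under 0.05 in each). Of 5 neuron and glia markers none was tested, and their sum was 6 to 24 over all libraries. The fibroblast markers thus moved with *Mettl3* KO, as did the member differences above. The fibroblast sum was also above WT in both *Trdn-as* KO libraries (733 to 1009 against 674 to 702), with 0 of the 5 markers called (limma). The part of these markers in the member differences was not tested for either knockout.

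*Adra1b*, for which no member peak was found, lies in a stretch between *Ttc1* and *Il12b* on chromosome 11 (43638836 to 44290889) that held 31 peaks, 28 of them without a gene. In that stretch 12 peaks had a mean Pol II value of 10 or more, and the highest read 94 and 99 in the WT pair, 94 and 75 in the *Trdn-as* KO pair and 169 and 133 in the *Mettl3* KO pair. None of these values can be given to *Adra1b* from the annotation, so no level of *Adra1b* is stated. Other genes also overlap members, since 8 peaks inside *Prkaca* were annotated to *SMIM46* (7) and *Samd1* (1), and 3 inside *Pde4d* to a gene without a symbol. Of the latter, a peak 1453286 nt into *Pde4d* read 155 and 201 in the WT pair, 267 and 212 in the *Trdn-as* KO pair and 220 and 182 in the *Mettl3* KO pair, above every *Pde4d* member peak, and reads of the overlapping genes cannot be told apart.

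Among the 4481 genes whose lead promoter peak had a mean within a factor of 2 of that of *Adrb1*, the patterns most like *Adrb1* over the 6 Pol II libraries were those of *Pde8a*, *Mief2* and *Smim19* (Euclidean distances of 0.232, 0.235 and 0.238 on the log2 scale). *Pde8a*, another phosphodiesterase, read 471 and 540 in the WT pair, 581 and 464 in the *Trdn-as* KO pair and 523 and 519 in the *Mettl3* KO pair, which like *Adrb1* gave its highest value in *Trdn-as* KO library 1.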

How the data were processed

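The data were Pol II, CTCF and IgG ChIP-seq libraries of mouse ventricles of 3 genotypes, with 15 libraries analysed. Inputs were left out. The authors trimmed reads (Trimmomatic 0.39), aligned them to mm39 with STAR 2.7.11b, removed duplicates with Picard 3.1.1, called peaks against input with MACS, merged them to 101256 regions and counted reads with featureCounts. The deposited signal values are counts that the authors divided by DESeq2 1.36.0 size factors and rounded to whole numbers, and each peak was given to the promoter of the nearest gene within 5000 nt, which 38260 peaks had. This scaling sets libraries of all antibodies on 1 scale and gives each library a different value per read, from 0.284 to 6.56. Depth was estimated from the spacing of the values, as 1991580 to 4949330 reads in peaks for Pol II, so precision is lowest for Pol II of *Trdn-as* KO library 2 and for IgG. Since the values had been rounded, no count model was used.

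Values were analysed as log2(value + 1) with limma 3.58.1 (R 4.3.3) with a variance trend, in 1 fit per antibody over the 3 genotypes, for peaks that reached 10 in 2 or more of 6 libraries. Fold changes are on this log2(value + 1) scale, which understates low peaks. P-values were adjusted by Benjamini-Hochberg over all peaks, and calls are at 0.05. Body to promoter ratios were compared with exact two-sided permutation tests, and counting intervals are exact at 95%. Tables and figures were made with Python 3.11.15, pandas 2.3.3, numpy 2.4.6, scipy 1.17.1 and matplotlib 3.10.9. On simulated data for *Trdn-as* KO against WT, 16% of peaks changed by a log2 fold of 1 and 67% of those changed by 2 were called for Pol II (4 false calls among 51704 peaks), and 27% and 91% for CTCF (0 among 60282). The members, gene lists and tests were chosen with earlier results of these data known. Named genes were all members, every called member peak, up to 3 genes per pathway list (called ones first, then by mean) and the 3 genes nearest to *Adrb1*, and 1 gene that this rule names is not reported here. Alternatives were other scalings, pseudocounts, filters and fits, and each library left out in turn. The peaks are on GRCm39, while the RefSeq windows are on GRCm38.p6, and coordinates were not converted.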

Additional observations from a re-analysis of the deposited data

Results flagged for a closer look

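CTCF at the *Pde4d* peak 272482 nt from the gene start was singled out because both knockouts were measured under the same contrast with WT and differed from each other, by -1.65 on the log2 scale (*Trdn-as* KO minus *Mettl3* KO, limma adjusted p = 0.0050). The CTCF value was 3 and 4 in *Trdn-as* KO and 13 in both *Mettl3* KO libraries, and the call was lost without either *Trdn-as* KO library (adjusted p = 0.24 and 0.30) or either *Mettl3* KO library (0.60 and 0.59). The peak entered the test only through WT and *Mettl3* KO, where it is high, and with no filter on low values the difference was not called (adjusted p = 0.12). The 2 groups also differ in sex-linked signal, since peaks on chromosome Y summed to 0 in *Trdn-as* KO, and the part of this in the difference was not tested.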

How the results depend on the processing

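Of the alternative values for single peaks and genes, 448 kept their direction and side of the threshold, 38 changed sign, 10 gained and 12 lost a call, and of the alternative counts 83 stayed within 1.5 times the main count and 30 did not; the cause was not tested. Scaling by uniquely mapped reads turned the *Trdn-as* KO lead Pol II changes to -0.40 (*Adrb1*), -0.58 (*Adcy5*), -0.46 (*Prkaca*), -0.49 (*Pde4d*) and -0.32 (*Pde3a*), where the median of all lead promoters was -0.63, and that of *Adrb1* in *Mettl3* KO to -0.077. Summing over annotated peaks gave -0.0081 (*Adrb1*) and -0.10 (*Adcy5*) in *Trdn-as* KO and -0.043 (*Adrb1*) in *Mettl3* KO. Median of ratios gave -0.037 (*Adrb1*, *Mettl3* KO) and for CTCF 0.035 (*Prkar1a*, *Mettl3* KO).

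For Pol II in *Mettl3* KO, 6 member peaks were called with median of ratios (4.51% of all peaks), 7 with the compared genotypes only (9.23%), 1 with a pseudocount of 8 (1.95%) and 1 with a replicate block (1.44%). Gene sums called were 3 (8.51% of all gene sums), 4 (44.7%), 1 (4.24%) and 0 (2.41%) in that order, and 0 at an adjusted p of 0.01, with uniquely mapped reads (0.0161%) and with no variance trend (0.0241%). Between the knockouts, median of ratios called 3 (2.76% of all peaks). The single CTCF call became 0 in both comparisons with no filter and with the compared genotypes only. The replicate numbers paired no samples (Pol II correlations of deviations of -0.0096 to -0.0002), so the block has no basis in the design. For CTCF the WT and *Trdn-as* KO numbers correlated at -0.238, and a block with crossed numbers, added after seeing the data, called 503 of all peaks and 1 member.

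Leaving out 1 library gave 0 to 4 member peaks and 0 to 3 gene sums for Pol II in *Trdn-as* KO, 0 gene sums in *Mettl3* KO, 0 to 2 peaks between the knockouts and 0 CTCF peaks in either comparison. Without 1 library, lead Pol II changes in *Trdn-as* KO ran from -0.24 to 0.27 (*Adcy5*), -0.17 to 0.36 (*Pde4d*) and -0.29 to 0.082 (*Adcy6*). CTCF changes ran in *Trdn-as* KO from -0.076 to 0.026 (*Adrb1*), -0.26 to 0.068 (*Adcy6*), -0.26 to 0.029 (*Prkaca*) and -0.10 to 0.065 (*Prkar1a*), and in *Mettl3* KO from -0.12 to 0.20 (*Adcy6*), -0.16 to 0.17 (*Adra1a*), -0.053 to 0.064 (*Adcy5*) and -0.11 to 0.056 (*Prkar1a*). Body to promoter log2 ratio differences ran in *Mettl3* KO from -0.081 to 0.062 (*Adcy5*) and -0.73 to 0.049 (*Adcy6*), and in *Trdn-as* KO from -0.50 to 0.28 (*Adcy6*), -0.20 to 0.37 (*Pde4d*), -0.86 to 0.050 (*Adra1a*), -0.28 to 0.062 (*Pde3a*) and -0.55 to 1.40 (*Prkar1a*).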
